A study of Mus musculus with 8 samples.

Results

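The Ly49 receptors are a family of C-type lectin-like receptors encoded by the *Klra* genes, and 10 protein-coding members carried by C57BL/6 mice were examined: *Klra1*, *Klra3*, *Klra4*, *Klra5*, *Klra6*, *Klra7*, *Klra8*, *Klra9*, *Klra10* and *Klra17*. They were chosen by gene name from the 47493 genes of the expression table, and all 10 were found. Their identifiers placed them on the minus strand of chromosome 6, within chr6:129831154-130386874 of mm10, a stretch of 555.7 kb in the NK gene complex. The table held 4 further *Klra* entries, of which 3 are annotated pseudogenes and 1 is *Klra2*, which lies outside that stretch.

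RNA was measured in CD8+ T cells of 4 female C57BL/6 mice aged 6 to 8 weeks that had all received the same treatment. B16-F10 melanoma cells (200000) were injected on day 0, cyclophosphamide (300 mg/kg), which depletes lymphocytes, on day 3, and 2000000 Thy1.1+ Pmel-1 CD8+ T cells, which recognise a melanoma antigen, on day 5 with IL-2 (10000 IU daily for 3 days). Anti-CD4 antibody (200 μg weekly) began on day 10 and was given 3 times. On day 25, the mice's own Thy1.1-negative CD8+ T cells from inguinal lymph nodes and spleen were split on a magnetic column into an IL-18Rα hi-enriched fraction and the flow-through, which served as the control. Each mouse gave 1 library of each fraction, so that every comparison is 4 libraries against 4 from the same mice, and replicate numbers mark the mouse. The cells were purified by beads, and no group without tumor or treatment was compared. In such bulk samples, more cells that express a gene and more RNA per cell cannot be told apart.

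Ly49 receptors are best known from natural killer (NK) cells, where each cell carries only some of the receptors. Most members bind MHC class I molecules and inhibit the cell through a cytoplasmic motif that recruits the phosphatases SHP-1 and SHIP. A few lack that motif and activate the cell through the adaptor DAP12. Ly49 receptors are also found on subsets of CD8+ T cells, among them memory-like cells and regulatory CD8+ T cells, on NKT cells and on some γδ T cells. Ly49Q, encoded by *Klra17*, is best known from plasmacytoid dendritic cells.

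The members are near copies of one another, which bears on how exactly their levels can be told apart. A stretch of 100 bases from the last coding exon, which encodes part of the ectodomain, is shown for 7 members because it holds both nearly identical and well separated sequences. It is read on the minus strand of mm10 at chr6:130178996-130179095 for *Klra9*, chr6:130323610-130323709 for *Klra3*, chr6:130115542-130115641 for *Klra8*, chr6:130269216-130269315 for *Klra10*, chr6:130013352-130013451 for *Klra6*, chr6:129831471-129831570 for *Klra17* and chr6:130218906-130219005 for *Klra7*. Capitals mark bases that differ from *Klra9*.
Klra9: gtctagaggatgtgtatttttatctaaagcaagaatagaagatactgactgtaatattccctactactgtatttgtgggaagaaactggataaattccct
Klra3: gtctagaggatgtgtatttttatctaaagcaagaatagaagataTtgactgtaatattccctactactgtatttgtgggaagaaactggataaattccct
Klra8: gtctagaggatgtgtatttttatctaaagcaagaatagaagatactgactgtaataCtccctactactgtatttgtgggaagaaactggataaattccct
Klra10: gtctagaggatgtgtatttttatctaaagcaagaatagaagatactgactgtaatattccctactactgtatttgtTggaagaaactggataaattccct
Klra6: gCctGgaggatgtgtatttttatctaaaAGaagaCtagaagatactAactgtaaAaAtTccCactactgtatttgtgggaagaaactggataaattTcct
Klra17: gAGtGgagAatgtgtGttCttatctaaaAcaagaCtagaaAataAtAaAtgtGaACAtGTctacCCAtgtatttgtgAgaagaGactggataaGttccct
Klra7: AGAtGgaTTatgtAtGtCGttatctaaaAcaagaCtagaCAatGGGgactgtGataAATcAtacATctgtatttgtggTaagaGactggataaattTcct
*Klra3*, *Klra8* and *Klra10* each differed from *Klra9* at 1 of these 100 positions, *Klra6* at 11, *Klra17* at 24 and *Klra7* at 27.

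Over whole transcripts of the GENCODE M21 annotation, windows of 150 bases, the length of 1 read, were compared with the transcripts of the other *Klra* entries. *Klra5*, *Klra6* and *Klra17* had no window within 2 mismatches of another entry. *Klra1* had 1.78% of its windows in common with *Klra4*, *Klra4* had 2.46%, and *Klra7* had 8.59%, all in common with the pseudogene *Klra13-ps*. With at most 5 mismatches, 48% of the *Klra7* windows were found in another entry. Within 2 mismatches, the share was 20.6% for *Klra8*, 21.6% for *Klra3*, 23.5% for *Klra9* and 36.1% for *Klra10*. With at most 5 mismatches it was 70.2%, 63.8%, 69.5% and 70.8% in the same order. In *Klra8*, 62 of 1029 windows were found without any mismatch in another entry. Levels of *Klra3*, *Klra8*, *Klra9* and *Klra10* are therefore estimates that the authors' quantification had to divide among near copies, and the levels of *Klra5*, *Klra6* and *Klra17* are not subject to this at that tolerance.

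**Figure D1:**
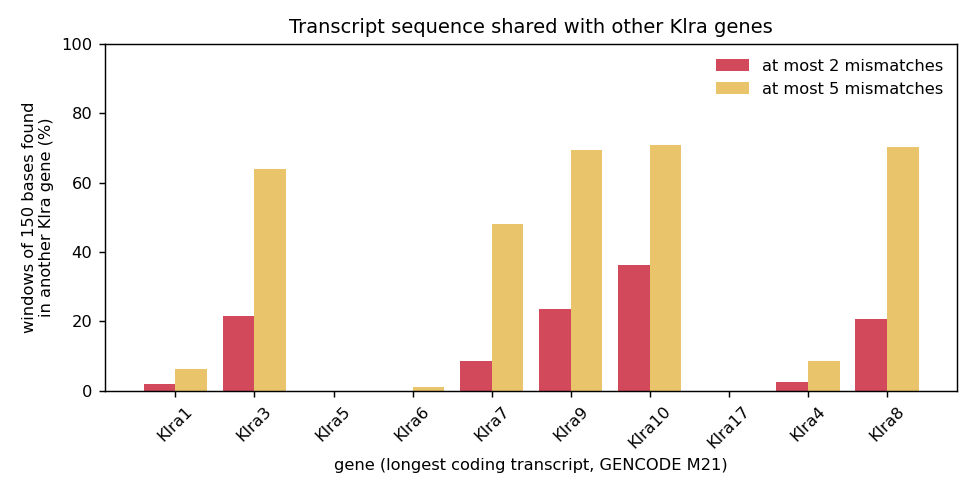
Share of each Ly49 transcript's windows of 150 bases (y axis, percent) that occur in another *Klra* entry with at most 2 (red) or at most 5 (yellow) mismatches. *Klra3*, *Klra8*, *Klra9* and *Klra10* have the tallest bars at both tolerances, *Klra7* reaches 48% with at most 5 mismatches, and *Klra5*, *Klra6* and *Klra17* are at 0 with at most 2 mismatches.

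Levels are FPKM, fragment numbers corrected for transcript length and library depth, and are given for replicates 1 to 4 in order. Ly49 levels were low. The mean reached 1 FPKM for 2 of the 10 members in the flow-through and for 7 in the enriched fraction. The summed FPKM of the 10 members was 3.62, 8.91, 7.53 and 9.65 in the flow-through and 10.9, 19.2, 13.1 and 32.1 in the enriched fraction. The fractions did not overlap in this sum, whose means were 7.43 ± 2.68 and 18.8 ± 9.53 (SD, n = 4), a ratio of 2.53. Within single mice the ratio ran from 1.73 in mouse 3 to 3.33 in mouse 4. The rise was not even across the family. *Klra5*, *Klra6* and *Klra17*, which share no window within 2 mismatches, summed to a ratio of 1.61, and their fractions overlapped. The 7 members with shared windows, whose fragments had to be divided, summed to a ratio of 3.09. Without enriched replicate 4 these ratios were 1.25 and 2.35. Whether they differ was not tested. From the estimated worth of 1 fragment, the member values rested on about 1 to 118 fragments per library, so that values under 0.5 FPKM are coarse.

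The selected receptor gene, *Il18r1*, was at 22.2 to 37.2 FPKM in the flow-through and at 106.6 to 116.0 FPKM in the enriched fraction. Between 11706 and 12288 genes per library reached 1 FPKM. Flow-through replicate 1 stood apart, with *Cd8a*, which encodes the CD8 α chain, at 179.2 FPKM, while the remaining flow-through libraries had 297.0 to 344.7 FPKM and the enriched ones 360.8 to 385.0 FPKM. That library had the lowest flow-through value for 8 of the 10 members, and the counts that change without it are given beside each list. Enriched replicate 4 had the highest enriched value for 9 of the 10.

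Among members tested across all genes, *Klra8* and *Klra9* were higher in the enriched fraction and none was lower. The test was limma on log2(FPKM + 1) over the 12166 genes whose mean across the 8 libraries reached 1 FPKM, and fold changes on that scale understate the change of low genes. Of the 10 members, 6 passed this filter and 2 of them were called higher with a Benjamini-Hochberg adjusted p under 0.05, beside 14.1% of all genes tested, with 13.7% called lower. At an unadjusted limma p under 0.05, 4 of the 6 were higher and 0 lower, beside 20% and 21.3% of all genes tested. Without flow-through replicate 1 the 2 genes stayed called, with log2 fold changes of 1.20 for *Klra8* (limma, Benjamini-Hochberg adjusted p = 0.0319) and 1.41 for *Klra9* (0.0130). *Klra1*, *Klra3*, *Klra8* and *Klra9* passed the filter only through their enriched libraries, so the count of tested members carries no weight of its own. With the mouse as a block, which is the paired comparison, 5 members were called higher (*Klra1*, *Klra3*, *Klra7*, *Klra8* and *Klra9*) and none lower, beside 22.2% of all genes tested called higher and 22.7% called lower. Without any filter, *Klra8*, *Klra9* and *Klra17* were called higher, beside 7.32% of 22789 genes, and with the block added 4 members were (*Klra1*, *Klra8*, *Klra9* and *Klra17*), beside 10.9%.

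The activating receptors are Ly49H (*Klra8*) and Ly49D (*Klra4*). Ly49H recognises a viral protein, m157 of murine cytomegalovirus. *Klra8* (ENSMUSG00000089727) was at 0.197, 0.313, 0.312 and 0.338 FPKM in the flow-through and at 1.06, 2.07, 1.36 and 4.74 FPKM in the enriched fraction. The fractions did not overlap, and the means of 0.290 ± 0.0630 and 2.31 ± 1.68 FPKM (SD, n = 4) differed by a ratio of 7.95. The log2 fold change was 1.24 with an SE of 0.30 (limma, Benjamini-Hochberg adjusted p = 0.0174). It was higher in 4 of 4 mice, by a ratio of 4.36 in the lowest mouse and 14.0 in the highest, mouse 4. Without enriched replicate 4 the ratio of means was 5.15. About 4 to 6 fragments stood behind each flow-through value and 21 to 82 behind each enriched one. The call was lost when both libraries of mouse 2 were left out (limma, Benjamini-Hochberg adjusted p = 0.0738) or both of mouse 3 (0.0747), with fold changes of 1.24 and 1.37, and without enriched replicate 4 the gene fell below the filter.

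*Klra4* was at 0.0936, 0.300, 0.396 and 0.215 FPKM in the flow-through and at 0.136, 0.871, 0.177 and 1.34 FPKM in the enriched fraction. The fractions overlapped, and mouse 3 was lower in the enriched fraction. The gene did not reach the filter, and without the filter its log2 fold change of 0.32 had an SE of 0.24 (limma, Benjamini-Hochberg adjusted p = 0.448). The sum of both activating members went from 0.541 ± 0.179 to 2.94 ± 2.23 FPKM, a ratio of 5.43 that ran from 2.17 to 10.99 within mice and was 3.49 without enriched replicate 4. The sum of the 8 other members went from 6.89 ± 2.55 to 15.9 ± 7.31 FPKM, a ratio of 2.31. Whether these ratios differ was not tested.

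Among the inhibitory receptors, Ly49I and Ly49C bind H2-K of the C57BL/6 haplotype. Ly49I (*Klra9*, ENSMUSG00000033024) was at 0.360, 0.915, 0.343 and 0.724 FPKM in the flow-through and at 2.48, 4.39, 1.85 and 5.71 FPKM in the enriched fraction. Every enriched library was above every flow-through library, and the means were 0.585 ± 0.281 and 3.61 ± 1.77 FPKM, a ratio of 6.16. The log2 fold change was 1.47 with an SE of 0.28 (limma, Benjamini-Hochberg adjusted p = 0.00696), and with the mouse as a block the adjusted p was 0.000899. The ratio within mice was between 4.80 and 7.89. *Klra9* was called higher under every alternative that gave a value.

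Ly49C (*Klra3*) was at 0.357, 1.04, 0.778 and 1.29 FPKM in the flow-through and at 1.27, 1.83, 0.967 and 2.68 FPKM in the enriched fraction. The fractions overlapped although each mouse was higher in its enriched library, and the means were 0.866 ± 0.398 and 1.68 ± 0.753 FPKM. The log2 fold change of 0.51 (SE 0.24) did not pass without the block (limma, Benjamini-Hochberg adjusted p = 0.140) and did with it (0.0259). With the block but without the filter, over 22789 genes, it did not (0.0551). *Klra3*, *Klra8*, *Klra9* and *Klra10*, which share the most sequence, summed to 2.07 ± 0.949 FPKM in flow-through libraries and to 8.06 ± 4.06 FPKM in enriched ones, which gives a ratio of 3.89. The sum still depends in part on how fragments were divided, because the transcripts differ in length and share windows with further entries.

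Ly49A (*Klra1*) and Ly49G (*Klra7*) are inhibitory receptors for H2-D molecules of some haplotypes. *Klra1* was at 0.237, 0.835, 0.679 and 1.39 FPKM in the flow-through and at 1.12, 1.57, 1.27 and 2.58 FPKM in the enriched fraction. All 4 mice were higher in the enriched fraction, by ratios of 1.86 to 4.73, but the highest flow-through library lay among the enriched ones. Its log2 fold change of 0.57 (SE 0.24) passed with the block (limma, Benjamini-Hochberg adjusted p = 0.0100) and not without it (0.106). *Klra7* (ENSMUSG00000067599) was at 0.857, 2.41, 1.55 and 1.36 FPKM in the flow-through and at 2.07, 3.81, 3.01 and 7.25 FPKM in the enriched fraction. It had the highest enriched mean of the family (4.03 ± 2.26 FPKM, against 1.54 ± 0.645 FPKM in the flow-through), and the fractions overlapped only through flow-through replicate 2 and enriched replicate 1. The log2 fold change was 0.92 with an SE of 0.31 (limma, Benjamini-Hochberg adjusted p = 0.0546, and 0.0153 with the block). It passed without flow-through replicate 2 (0.0410), without enriched replicate 1 (0.0310) or without both libraries of mouse 1 (0.0415). Its sum with the pseudogene *Klra13-ps*, with which it shares windows, was higher in the enriched library of mice 1 and 4 and slightly lower in mice 2 and 3.

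Ly49F (*Klra6*, ENSMUSG00000061769) had the highest flow-through mean of the family and differed little between the fractions. It was at 1.14, 2.64, 2.47 and 2.56 FPKM in the flow-through and at 1.26, 1.96, 2.50 and 3.48 FPKM in the enriched fraction, with means of 2.21 ± 0.710 and 2.30 ± 0.936 FPKM. Mouse 2 was lower in the enriched fraction, and the other 3 were higher by ratios of at most 1.36. The log2 fold change was 0.03 with an SE of 0.25 (limma, Benjamini-Hochberg adjusted p = 0.940, and 0.870 with the block). Its sign turned to -0.21 when libraries were scaled to CD8 T-cell identity genes, and to -0.15 without flow-through replicate 1.

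Ly49Q (*Klra17*, ENSMUSG00000014543) was at 0.136, 0.211, 0.524 and 0.520 FPKM in the flow-through and at 0.837, 1.75, 0.829 and 2.03 FPKM in the enriched fraction. The fractions did not overlap, with means of 0.348 ± 0.204 and 1.36 ± 0.620 FPKM, a ratio of 3.91. Its mean over all libraries was below the filter, and in the fit without a filter the log2 fold change was 0.78 with an SE of 0.20 (limma, Benjamini-Hochberg adjusted p = 0.0419). This member has no window within 2 mismatches of another entry. *Klra8*, *Klra9* and *Klra17* were the 3 members of 10 whose libraries did not overlap, all of them higher in the enriched fraction, beside 10.7% of the genes with any value above 0.

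Ly49E (*Klra5*), which is known from fetal NK cells and innate-like T cells, was at 0.0782, 0.174, 0.307 and 0.345 FPKM in the flow-through and at 0.0754, 0.467, 0.712 and 1.95 FPKM in the enriched fraction. Mouse 1 was slightly lower in its enriched library and the other 3 were higher, and the log2 fold change of 0.46 without a filter had an SE of 0.28 (limma, Benjamini-Hochberg adjusted p = 0.340). Ly49J (*Klra10*) was at 0.161, 0.0745, 0.169 and 0.911 FPKM in the flow-through and at 0.624, 0.473, 0.380 and 0.365 FPKM in the enriched fraction. Its highest library was a flow-through one, and it rests on 1 to 11 fragments per library. Without a filter its log2 fold change was 0.17 (limma, Benjamini-Hochberg adjusted p = 0.572).

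Across members, 6 of 10 were higher in the enriched library of 4 of 4 mice (*Klra1*, *Klra3*, *Klra7*, *Klra8*, *Klra9* and *Klra17*), beside 20.2% of the 22789 genes with any value above 0. A gene at 0 in any enriched library cannot be counted there, and the members were above 0 in every library. The share may therefore be too low a reference for them. The same holds for the share given above for libraries that did not overlap. All 10 had a higher mean in the enriched fraction, which for *Klra6* was a difference well within the spread between libraries.

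**Figure D2:**
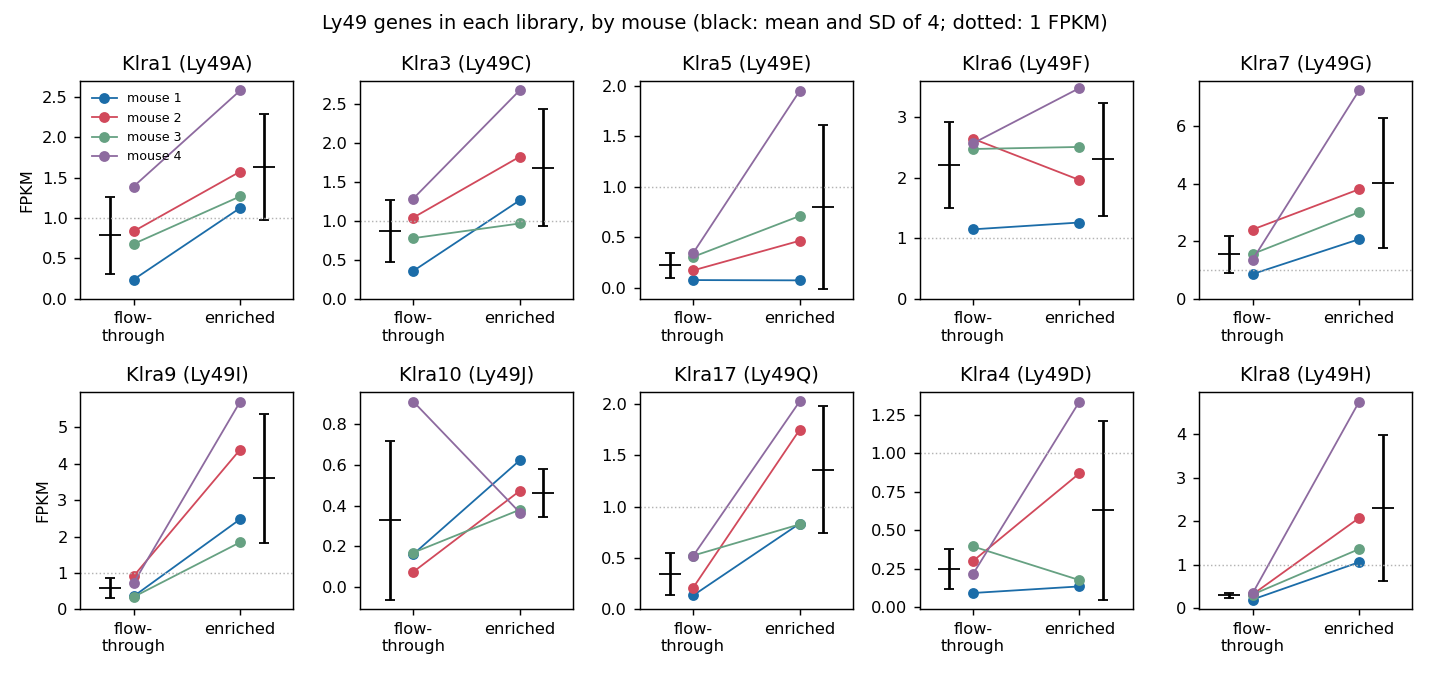
FPKM (y axis, linear, a separate scale for each gene) of the 10 Ly49 genes in the flow-through and the IL-18Rα hi-enriched library of each mouse, joined by lines, with the mean and SD of 4 libraries in black. *Klra8*, *Klra9* and *Klra17* are separated between the fractions, *Klra6* is not, and mouse 4 reaches the highest enriched value in 9 of 10 genes.

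**Figure D3:**
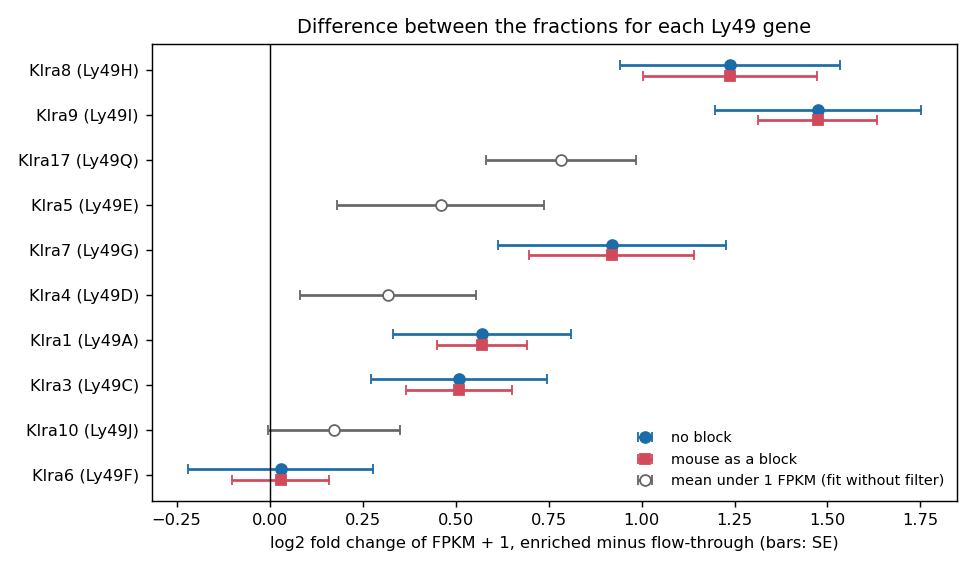
Log2 fold change of FPKM + 1 (x axis, enriched minus flow-through, bars are SE) for each Ly49 gene, ordered by ratio of means, without a block (blue circles), with the mouse as a block (red squares) and, for the 4 genes under the filter, without a filter (open circles). *Klra9* at 1.47 and *Klra8* at 1.24 lie farthest from 0 and *Klra6* at 0.03 is nearest to it.

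The make-up of Ly49 expression differed between the fractions. *Klra6* supplied 26.6% to 32.8% of the summed Ly49 FPKM in the flow-through libraries and 10.2% to 19.2% in the enriched ones, with means of 30.2% ± 2.72 and 12.9% ± 4.21 (SD, n = 4). *Klra9* supplied 4.55% to 10.3% in the flow-through and 14.1% to 22.9% in the enriched fraction. *Klra8* supplied 3.51% to 5.45% and 9.66% to 14.8%. None of these 3 shares overlapped between the fractions. *Klra7* supplied similar shares in both, with means of 21.3% ± 5.50 and 21.1% ± 2.03. The shares of one library add up to a fixed total, so they are not independent, and no test of a difference between members was made. Without *Klra6*, the sum of the other 9 members had a ratio of 3.16 between the fractions.

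**Figure D4:**
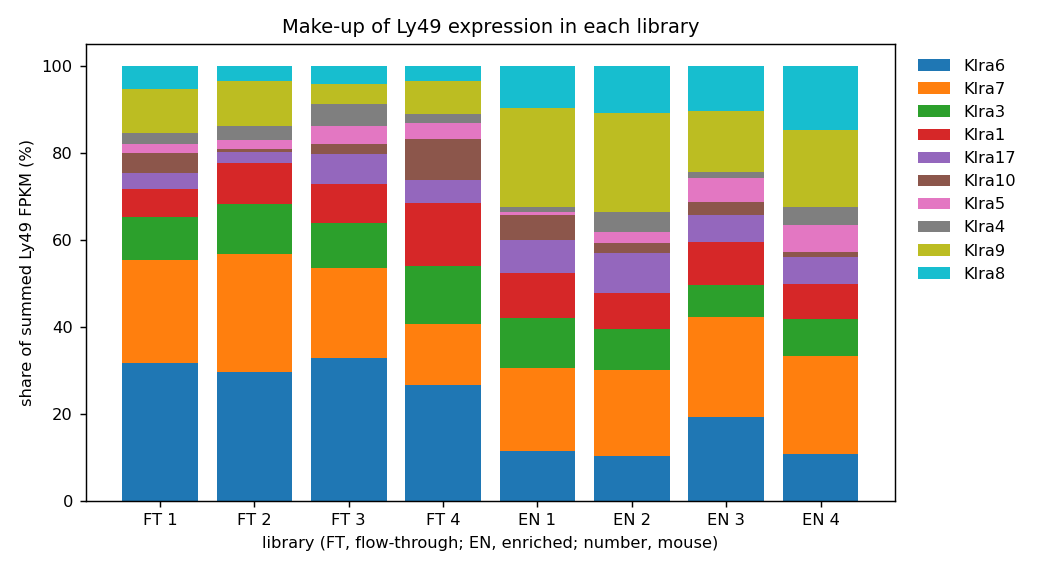
Share of the summed Ly49 FPKM (y axis, percent) held by each gene in the 4 flow-through (FT) and 4 enriched (EN) libraries, numbered by mouse. The *Klra6* segment at the bottom falls from 26.6% or more in every flow-through library to 19.2% or less in every enriched one, and the *Klra9* and *Klra8* segments at the top are wider in every enriched library.

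The promoter windows of 7 of the 10 members carry a common stretch. It is shown because it is found in *Klra9*, *Klra8* and *Klra17*, whose libraries did not overlap between the fractions, and also in *Klra6*, which differed little. It is printed with 20 bases on either side from RefSeq sequence (GRCm38.p6, minus strand), at chr6:130193092.0-130193146.0 for *Klra9*, chr6:130129920.0-130129974.0 for *Klra8*, chr6:129876687.0-129876741.0 for *Klra17* and chr6:130027015.0-130027069.0 for *Klra6*, with the common stretch in capitals.
Klra9: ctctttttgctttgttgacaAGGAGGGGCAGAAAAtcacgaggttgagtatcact
Klra8: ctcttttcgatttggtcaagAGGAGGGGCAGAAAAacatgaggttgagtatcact
Klra17: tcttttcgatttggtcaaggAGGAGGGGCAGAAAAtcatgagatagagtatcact
Klra6: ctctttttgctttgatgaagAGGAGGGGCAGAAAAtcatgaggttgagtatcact
The stretch AGGAGGGGCAGAAAA is the longest one found in the promoter windows, from 250 bases before to 50 after the start, of at least 7 of the 10 members, a limit set after the sequences had been seen. The members that hold it are *Klra3*, *Klra4*, *Klra5*, *Klra6*, *Klra8*, *Klra9* and *Klra17*. Its place is not fixed. It begins 14 bases before the start for *Klra9*, 49 for *Klra17*, 95 for *Klra6*, and 56 or 119 for *Klra8*, by the promoter used. For *Klra3* the distance is -5, which is after the start. On either strand it was in the windows of 8 of 27025 genes (0.0296%), those 7 included. The windows of *Klra1*, *Klra7* and *Klra10* do not have these letters, so the members that hold them and those that do not both include genes called higher with the block.

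The 6 members above the filter tended to vary together among libraries of one fraction. How often pairs of other genes do so to the same degree was not measured. After subtraction of the fraction means, Pearson's r of log2(FPKM + 1) between the 6 members above the filter ran from 0.50 (*Klra6* with *Klra9*) to 0.94 (*Klra1* with *Klra3*) over 8 libraries, which share mice, depth and purity. Among other genes, those that followed *Klra8* most closely within fractions were *Trdv2-2* (r = 0.97), *Kdm5b* (0.97) and *Klri2* (0.96), a lectin-like receptor of the same gene complex. Those nearest to *Klra7* were *Itga2* (0.98), which encodes the integrin CD49b found on NK cells, *Gm29093* (0.98) and *Heatr9* (0.98). Those nearest to *Klra9* were *Atf3* (0.98), *Smim3* (0.97) and *Csf1* (0.95). Nearest to *Klra1* were *Igkv12-41* (0.99), *Dexi* (0.99) and *Gzma* (0.98), which encodes granzyme A. For *Klra3* they were *Pddc1* (0.99), *Ccl3* (0.98) and *Pias3* (0.97), and *Lcor* (0.99) was nearest to *Klra6*. These are the highest of 12166 genes and are given as a description only.

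Of the 4 other *Klra* entries, 1 passed the filter. *Klra13-ps*, the most abundant entry, was at 4.84, 9.36, 7.80 and 6.35 FPKM in the flow-through and at 9.13, 7.33, 5.94 and 14.5 FPKM in the enriched fraction, and 2 of 4 mice were higher (log2 fold change 0.30, SE 0.26, limma, Benjamini-Hochberg adjusted p = 0.415). Summed with *Klra7*, with which it shares windows, it had a ratio of 1.54 between the fractions, and of 1.21 without enriched replicate 4. Within mice 1 to 4 the ratio of that sum was 1.96, 0.947, 0.957 and 2.83. In mice 2 and 3 the sum was thus slightly lower in the enriched library. *Klra2* had means of 0.384 ± 0.307 and 1.18 ± 0.505 FPKM and was higher in 4 of 4 mice, with a log2 fold change of 0.65 without a filter (limma, Benjamini-Hochberg adjusted p = 0.0852, and 0.0117 with the block). *Klra14-ps* had means of 0.0476 and 0.437 FPKM and was higher in 4 of 4 mice, and *Klra11-ps* was listed at 0 in all libraries.

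The signaling partners and ligands of Ly49 receptors were examined as a list of 12 genes, all of which were tested. Of these, 3 were higher in the enriched fraction and none was lower, beside 14.1% and 13.7% of all genes tested. The median log2 fold change was 0.30, beside -0.02 over all genes tested. *Tyrobp*, which encodes DAP12, the adaptor of the activating members, was at 52.0, 160.1, 75.1 and 129.1 FPKM in the flow-through and at 141.0, 291.2, 173.6 and 279.4 FPKM in the enriched fraction. Each mouse was higher in its enriched library, and the log2 fold change was 1.15 with an SE of 0.38 (limma, Benjamini-Hochberg adjusted p = 0.0525, and 0.000407 with the block). The 3 called genes were *Fcer1g* (log2 fold change 1.15, limma, Benjamini-Hochberg adjusted p = 0.0425), an adaptor of other activating receptors, *Zap70* (0.64, 0.0263), a kinase that acts downstream of ITAM motifs, and *Inpp5d* (0.34, 0.0417), which encodes SHIP. *Ptpn6*, which encodes SHP-1, had a log2 fold change of 0.28 and *Hcst*, which encodes the adaptor DAP10, of 0.47. Both were called with the block, and *Hcst* also without flow-through replicate 4. The ligand genes were abundant in both fractions, with *H2-K1* at 1479 ± 371.2 and 1567 ± 101.2 FPKM and log2 fold changes of 0.12 for *H2-K1*, 0.32 for *H2-D1* and 0.23 for *B2m*, none of which passed. No gene of this list was called higher when libraries were scaled to CD8 T-cell identity genes, when no filter was applied, or when flow-through replicate 3, enriched replicate 2, 3 or 4, or mouse 2, 3 or 4 was left out, and 1 was without flow-through replicate 1. At an unadjusted limma p under 0.05, 6 were higher and 0 lower, beside 20% and 21.3% of all genes tested.

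Of 18 other lectin-like receptors of the NK gene complex, 17 were measured and 14 tested. Of the tested ones 9 were higher in the enriched fraction (*Klrb1b*, *Klrb1c*, *Klrb1f*, *Klrc1*, *Klrc2*, *Klre1*, *Klrg1*, *Klri2* and *Klrk1*), none was lower, and the median log2 fold change was 1.18. Of all genes tested, 14.1% were called higher and 13.7% lower. *Klri2* and *Klrb1a* reached the filter only through their enriched libraries, so the count carries little weight of its own. *Klrk1*, which encodes the activating receptor NKG2D, went from 14.0 ± 5.11 to 55.1 ± 10.6 FPKM (1.96 on the log2 scale, SE 0.27, limma, Benjamini-Hochberg adjusted p = 0.0022). *Klrc1*, which encodes the inhibitory receptor NKG2A, went from 9.21 ± 3.13 to 26.7 ± 6.01 FPKM (1.48, SE 0.25). *Klrd1*, which encodes CD94, the partner chain of NKG2A, was at 96.0 ± 31.9 and 92.4 ± 13.7 FPKM, and its log2 fold change was 0.01 (SE 0.26). Without mouse 3, 3 receptors of the list were called higher. *Cd69* was called lower without flow-through replicate 1 and with the block. The study named some of these receptors from the same libraries, so the list is not independent evidence of their direction.

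Of 12 genes known from Ly49-positive or memory-like CD8+ T cells, all tested, 5 were higher and 1 was lower. Beside them, 14.1% of all genes tested were called higher and 13.7% lower. The median log2 fold change of the list was 0.60. The 5 were *Tbx21*, *Il2rb*, *Cd44*, *Cxcr3* and *Cd244*. *Il2rb*, which encodes CD122, a receptor chain for IL-2 and IL-15 that marks Ly49-positive CD8+ T cells, went from 132.0 ± 29.1 to 332.5 ± 9.81 FPKM (1.35 on the log2 scale, SE 0.16, limma, Benjamini-Hochberg adjusted p = 0.0012). *Itga4*, which encodes CD49d and is low on memory-like cells that arise without antigen, was the gene called lower (-0.65, SE 0.12). *Ikzf2*, which encodes Helios, found in Ly49-positive regulatory CD8+ T cells, was at 4.95 ± 1.85 and 9.40 ± 3.11 FPKM and was called with the block, without enriched replicate 1 and without mouse 1, but not in all libraries unblocked (0.81, SE 0.30, limma, Benjamini-Hochberg adjusted p = 0.0780 without it). *Eomes* (0.08) and *Tcf7* (-0.13) did not pass. Without flow-through replicate 1, 3 genes of the list were called lower, and without mouse 3 none was. With the block and without mouse 1, 2 were.

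Markers of NK cells were examined next. Of 12 NK-cell markers, 8 were higher in the enriched fraction and none lower, beside 14.1% and 13.7% of all genes tested. The summed FPKM of the markers was 433.2 to 906.9 in flow-through libraries and 1219 to 1522 in enriched ones. Of these 12 genes, 6 also stand in one of the 3 lists above, and cytotoxic CD8+ T cells express several of them. *Itga2* and *Klri2* reached the filter only through their enriched libraries, so the count carries little weight of its own. With the block 11 were called higher, beside 22.2% of all genes tested, and without mouse 3 only 3. *Ncr1*, which encodes NKp46, a receptor known from NK cells, was at 0.623, 2.15, 1.17 and 2.68 FPKM in the flow-through and at 7.33, 19.5, 13.3 and 27.1 FPKM in the enriched fraction (log2 fold change 2.68, SE 0.39, limma, Benjamini-Hochberg adjusted p = 0.0027). The study named *Ncr1* and *Klrb1c* from the same libraries as receptor genes raised in the enriched CD8+ T cells, so their direction is not independent evidence. Within the enriched fraction, mouse 4 was highest and mouse 2 next in both *Ncr1* and the Ly49 sum. *Itga2* went from 0.569 ± 0.0834 to 2.78 ± 0.383 FPKM and *Klre1* from 1.62 ± 0.596 to 5.33 ± 2.92 FPKM.

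Of 8 γδ T-cell markers, 3 were higher and none lower, beside 14.1% and 13.7% of all genes tested. These shares also belong beside the unblocked counts over all libraries that follow. The γδ T-cell markers had sums of 75.8 to 120.1 FPKM in flow-through libraries and 107.4 to 231.3 FPKM in enriched ones. *Sox13* among them reached the filter only through its enriched libraries. *Trdc*, the constant region of the δ chain, went from 8.01 ± 3.50 to 17.3 ± 5.91 FPKM. *Zbtb16*, a factor of NKT and other innate-like T cells, went from 0.405 ± 0.255 to 1.93 ± 0.693 FPKM. It was the 1 gene tested of 3 NKT markers, through its enriched libraries. The other NKT markers did not follow it. *Trav11d* was listed at 0 in all libraries, and *Trav11* was at 1.08 FPKM in flow-through replicate 4 and at 0 in every other library. The summed levels of the NKT markers were 0.158 to 1.63 and 0.892 to 2.33 FPKM. Of 8 plasmacytoid dendritic cell markers, which bear on *Klra17*, 2 were higher and 1 lower, with sums of 122.2 to 170.6 and 149.4 to 185.5 FPKM. *Siglech* went from 1.39 ± 0.450 to 3.64 ± 0.915 FPKM and *Ccr9* fell from 16.9 ± 5.17 to 4.50 ± 1.26 FPKM. Of the monocyte and macrophage markers 4 of 6 were higher (sums of 120.1 to 395.4 and 386.6 to 892.6 FPKM), and none of 5 neutrophil markers (388.5 to 2261 and 416.3 to 2691 FPKM) or 4 B-cell markers (19.4 to 53.2 and 25.8 to 64.8 FPKM) passed, with 0 of either list at an unadjusted limma p under 0.05. Among the monocyte and macrophage markers, *Adgre1* and *Fcgr1* reached the filter only through their enriched libraries. Of 8 CD8 T-cell identity genes none passed in limma, and 3 were higher at an unadjusted p under 0.05, beside 20% of all genes tested. The sums of the 8 were 1607 to 3020 and 3127 to 3345 FPKM. With the mouse as a block, which is the paired fit, 22.2% of all genes tested were called higher and 22.7% lower. More of these markers were called. They were 7 of 8 γδ T-cell markers, 6 of 6 monocyte and macrophage markers, 4 higher and 1 lower of the plasmacytoid dendritic cell markers, 2 higher (*S100a8* and *Elane*) and 1 lower (*Mpo*) of the neutrophil markers, 1 B-cell marker (*Cd79b*) and 2 CD8 T-cell identity genes (*Trac* and *Cd2*). Without flow-through replicate 1, 2 γδ T-cell, 2 monocyte and macrophage and 2 CD8 T-cell identity genes were called higher and 2 plasmacytoid dendritic cell markers lower. Without mouse 3, 1 γδ T-cell, 1 plasmacytoid dendritic cell and 1 monocyte and macrophage marker were called higher and *Zbtb16* was not, and without mouse 4 the monocyte and macrophage count was also 1 and *Zbtb16* was again not called. Leaving out enriched replicate 2 or 4 or flow-through replicate 3 left 2 γδ T-cell and 2 monocyte and macrophage markers called. The part of each of these cell types in the Ly49 levels was not tested.

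**Figure D5:**
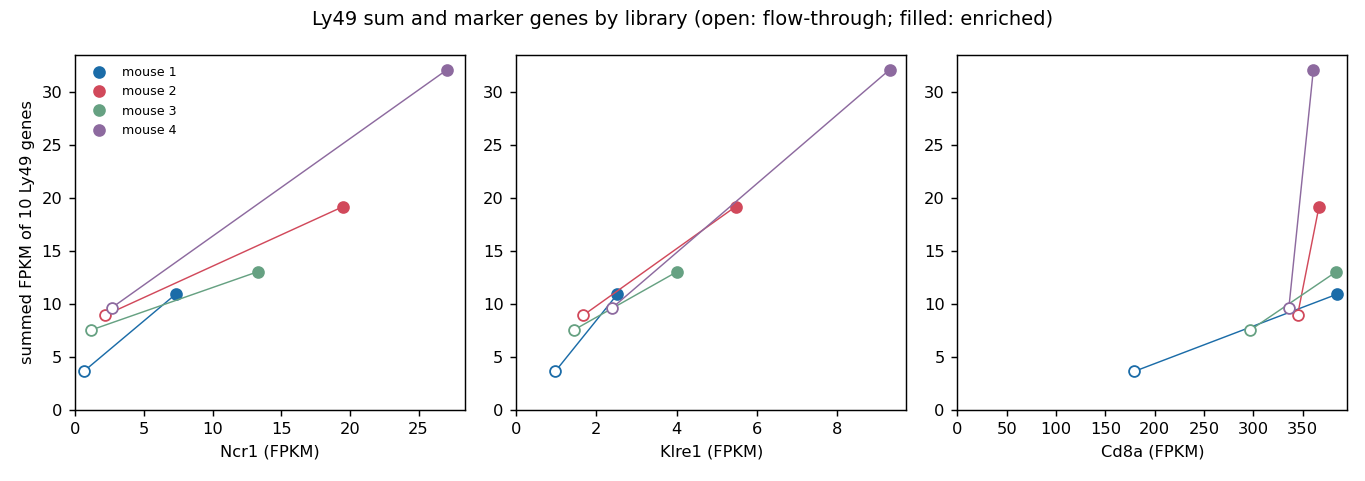
Summed FPKM of the 10 Ly49 genes (y axis) against the FPKM of *Ncr1*, *Klre1* and *Cd8a* (x axes) in each library, with open circles for the flow-through, filled circles for the enriched fraction and a line for each mouse. Mouse 4 has the highest *Ncr1*, *Klre1* and Ly49 sum of the enriched libraries, at 27.1, 9.32 and 32.1 FPKM. The enriched libraries lie close together in *Cd8a*, from 360.8 FPKM in mouse 4 to 385.0 FPKM in mouse 1.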

How the data were processed

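RNA of 8 libraries, 4 of each fraction from the same 4 mice, was sequenced from stranded poly(A) libraries. The authors removed low-quality reads, mapped the others to mm10 with TopHat and estimated FPKM with Cufflinks 2.1.1, with correction for multi-mapping reads and fragment bias. The annotation release is not given in the sources used here. The deposited FPKM values carry no counts, so count models and counting intervals could not be used, and fragment numbers per gene are estimates from low values. Reads of near-identical *Klra* genes were divided by that estimation.

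The limma package (version 3.58.1, under R 4.3.3) was fitted to log2(FPKM + 1), pseudocount 1, with a variance trend and no block, over genes whose mean reached 1 FPKM, two-sided, with Benjamini-Hochberg adjustment over all genes tested and a threshold of 0.05. The fit was tested on simulated data. The fractions of 1 mouse share a replicate number, and their deviations from the fraction means correlated in every mouse (r = 0.66, 0.59, 0.31 and 0.47), so the fit with the mouse as a block is the paired one. Alternatives were pseudocounts of 0.5 and 0.1, no filter, a mean of at least 5 FPKM, the block, median-ratio scaling, scaling to the geometric mean of 8 CD8 T-cell identity genes, no variance trend and leaving out each library. Leaving out both libraries of a mouse, and the ratios of means without single libraries, were added after the data had been seen.

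Genes named were all *Klra* entries, the genes of the partner and CD8 T-cell lists, defining markers of other cells and, per tested member, up to 5 genes with the highest correlation within fractions. Other genes of the lists are named with their counts, as chosen after their values were seen. The members and lists were chosen with earlier results of these data known. Gene positions and transcripts were taken from GENCODE M21 (mm10), in which all 10 identifiers were found, and promoters from RefSeq (GRCm38.p6), which held all 10 members. Some genes are counted but not reported by name here.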

Additional observations from a re-analysis of the deposited data

Results flagged for a closer look

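In flow-through replicate 1, *Klra6* had 1.14 FPKM where the remaining 3 had 2.47 to 2.64 FPKM, a gap of 0.886 of the range of the 4 values. In flow-through replicate 4, *Klra10* had 0.911 FPKM where the remaining 3 had 0.0745 to 0.169 FPKM, a gap of 0.887 of the range. Both exceed Dixon's 95% critical value of 0.830 for 4 samples. They were 2 of 22 groups examined, of which chance alone would be expected to mark 1.1. Flow-through replicate 1 also had the lowest *Cd8a* (179.2 FPKM), and *Klra10* in flow-through replicate 4 rests on about 11 fragments. The part of either in these values was not tested.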

How the results depend on the processing

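*Klra9* stayed called and the ratio of the Ly49 sums stayed above 1 (1.94 to 2.89 when libraries or mice were left out, 2.07 with scaling to CD8 T-cell genes) under all alternatives that gave a value. The replicate block, which pairs the fractions of each mouse, moved the Ly49 genes called higher from 2 to 5, the partner genes called higher from 3 to 6, the CD8 T-cell list genes called lower from 1 to 2, the other lectin receptors called lower from 0 to 1, and all genes from 1720 higher and 1664 lower to 2705 and 2763. Scaling to CD8 T-cell identity genes moved the median over all genes from -0.02 to -0.36 (log2) and left 506 genes higher and 1300 lower, so that 28.0% of calls were higher in place of 50.8%. Under it the Ly49 genes called higher stayed at 2, the partner genes called higher fell to 0, the CD8 T-cell list genes called lower were 3, the other lectin receptors called lower were 1, and *Klra6* turned to -0.21. Without a filter on low values, 0 partner genes were called higher.

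With 1 library or 1 mouse left out, the Ly49 genes called higher were 1 to 3, falling to 1 without enriched replicate 4 or without mouse 2, 3 or 4. All genes called higher were 447 to 1813 and lower 292 to 1780, both lowest without mouse 3. The partner genes called higher were 0 to 4, the CD8 T-cell list genes called lower 0 to 3, the other lectin receptors called higher 3 to 10 and lower 0 to 1. *Klra6* was between -0.15 and 0.20, and below 0 at -0.15 when flow-through replicate 1 was left out, -0.01 and -0.13 when enriched replicate 3 or 4 was, and -0.07 when mouse 4 was. The cause was not tested. Requiring a mean of 5 FPKM left no Ly49 gene to test. The low levels and the sequence shared among members limit what can be said of single genes, above all *Klra4*, *Klra5* and *Klra10*.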
